A study of Mus musculus with 6 samples.

Results

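The transcription factors that establish and maintain the macrophage lineage were followed here as 9 genes: Spi1, Runx1, Cebpa, Cebpb, Cebpd, Maf, Zeb2, Bhlhe40 and Bhlhe41. They were taken by name, and all 9 were among the 24411 genes listed and among the 11692 that passed the filter on low counts. Expression had been measured by RNA sequencing of cultured macrophages from mice of the inbred strain C57BL/6. Bone marrow monocytes were first separated by a fluorescence-activated cell sorter into cells low for LFA1 and Itgam (LFA1-lo Itgam-lo) and cells high for both (LFA1-hi Itgam-hi). LFA1 is an adhesion receptor of leukocytes, and Itgam is the CD11b chain of a related receptor. Both subsets were then cultured alike for 7 days with the macrophage growth factor M-CSF at 20 ng/ml, in medium that held 10% serum and was renewed on day 4. The labels name no genetic change. They do not give the age or sex of the mice, nor whether libraries came from separate animals or cultures, so the p-values below cover variation among these libraries alone, which may be technical. The sort describes the cells before culture and not the harvested macrophages. The groups held 3 libraries each and are called LFA1-lo and LFA1-hi macrophages below.

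A macrophage is made and kept by a small network of DNA-binding proteins. PU.1, the ETS-family product of Spi1, opens chromatin at myeloid enhancers together with C/EBP proteins, and Runx1 acts upstream of it at the Spi1 enhancer during blood formation. c-Maf, the product of Maf, restrains the division of mature macrophages, Zeb2 keeps the identity of tissue macrophages, and Bhlhe40 and Bhlhe41 are repressors that permit macrophages to renew themselves and hold down c-Maf-driven genes in the lung.

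The libraries held between 15191262 and 17614509 summed expected counts. The cultures were macrophage-like in both groups: all 10 macrophage markers were tested, and their summed level was 17816 to 23165 CPM (counts per 1000000 after TMM scaling) across the LFA1-lo group, against 13688 to 16000 CPM across the LFA1-hi group. Of these markers 6 fell, with the largest changes for Csf1r (log2 fold change −1.02), Cd14 (−0.86) and Adgre1 (−0.83), 1 rose and 3 did not pass. Called by the same test, 15.6% of all tested genes fell and 16.1% rose, which holds beside each marker count here. Lyz2 made up most of the sum, with 10330 to 15015 CPM in the LFA1-lo and 8848 to 10746 CPM in the LFA1-hi libraries. Its groups overlapped, and its place among the 6 (edgeR adjusted p = 0.04996) was lost in 11 of 17 alternatives. Flt3 and Ccr7 of dendritic cells, Pax5 of B cells, Cd3e, Cd3d and Cd3g of T cells, Gata1 of erythroid cells and Cpa3 and Fcer1a of mast cells were at 0 counts in every library. The marker lists of dendritic, B, T, mast, erythroid and stromal cells summed to at most 5.23 CPM in any library, with Cd4 as the gene called in them (lower, 196 counts against 7), and none of the 2 tested endothelial markers passed (summed 11.5 to 18.4 against 21.2 to 26.0 CPM). Markers of neutrophils and their precursors summed to 11.9 to 42.8 CPM across the LFA1-lo group and to 3.95 to 6.27 CPM across the LFA1-hi group, and 3 of the 4 tested fell (Ngp −4.19, S100a9 −4.08 and Ltf −3.86). Markers of dividing cells summed to 582 to 983 against 2115 to 2357 CPM, and 9 of 9 rose, led by Rrm2 (1.99), Birc5 (1.75) and Ccnb1 (1.73). The part of these shifts in the results below was not tested, and in bulk RNA a gene made by fewer cells cannot be told apart from less RNA of it per cell. In a principal component analysis of the 500 genes with the highest variance, component 1 (69.5% of the variance) separated the groups, while component 2 (10.6%) ran from −17.08 in LFA1-lo replicate 2 to 16.07 in LFA1-lo replicate 1. Both of these libraries lay apart from the others on it, and counts that turn on leaving out either are given beside the results.

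The regulatory DNA of these genes is shown for Bhlhe41 and Runx1, a factor that was higher and a factor that was lower in LFA1-hi macrophages, because the mean transcript length of Runx1 also differed between the groups without overlap and the gene is transcribed from a distal and a proximal start. RefSeq (GRCm38.p6) promoter windows existed for 5 of the 9 genes, Zeb2, Cebpa, Cebpb, Runx1 and Bhlhe41, with 9 windows in all. Each line gives the bases before the RefSeq start that also lie outside GENCODE M21 exons of the gene, 5′ to 3′ on the gene's strand, which is the minus strand for both genes. Capitals mark matches on either strand to GAGGAA (the ETS core bound by PU.1), TGTGGT (Runx), TTNCNNAA (C/EBP), CACGTG (the E-box of Bhlhe factors), TGCTGA (an arm of the Maf recognition element) or CACCTG (the E-box of Zeb factors).
Bhlhe41, chr6:145865559-145865670: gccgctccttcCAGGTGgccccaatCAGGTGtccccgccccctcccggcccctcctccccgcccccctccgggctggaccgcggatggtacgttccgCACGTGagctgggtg
Runx1 distal start, chr16:92826150-92826324: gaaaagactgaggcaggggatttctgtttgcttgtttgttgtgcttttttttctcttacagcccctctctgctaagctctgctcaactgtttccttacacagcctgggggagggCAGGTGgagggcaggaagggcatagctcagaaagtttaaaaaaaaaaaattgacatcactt
Runx1 proximal start, chr16:92697330-92697579: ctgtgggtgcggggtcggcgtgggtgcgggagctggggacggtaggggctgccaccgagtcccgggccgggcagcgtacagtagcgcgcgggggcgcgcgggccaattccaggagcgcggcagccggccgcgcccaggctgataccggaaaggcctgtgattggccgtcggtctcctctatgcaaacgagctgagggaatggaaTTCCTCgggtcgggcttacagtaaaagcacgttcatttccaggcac
Over the full 250 bases before the start, the Bhlhe41 window held 1 CACGTG and 2 CACCTG matches. CACGTG occurred in 6.02% and CACCTG in 17.2% of all 32851 mouse windows of that length. The distal Runx1 window also held 1 CACGTG, 71 bases before the start and so outside the printed stretch, and 1 CACCTG. The proximal window held 1 GAGGAA match, printed as its complement, a motif found in 23.3% of all windows. All 4 windows of Zeb2 held 1 GAGGAA each, though 2 of these windows overlap and share their match. The windows of Cebpa and Cebpb matched none of the 6 motifs. TGTGGT (14% of all windows) and TGCTGA (16.1%) matched no window of these 5 genes, and TTNCNNAA (36.8%) matched 1 window of Zeb2. The motifs do not overlap one another in the printed stretches, and a match describes letters and not a bound site.

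Of the 9 factors, 3 fell and 1 rose in LFA1-hi macrophages, and 5 did not pass the test (edgeR quasi-likelihood, Benjamini-Hochberg adjusted p under 0.05 over all tested genes). Spi1, Zeb2 and Runx1 were lower and Bhlhe41 was higher. Among all tested genes 15.6% were called lower, 16.1% higher and 31.7% in either direction. The median log2 fold change (LFA1-hi minus LFA1-lo) of the 9 genes was −0.25, against 0.00 over all tested genes, and the median of its absolute size was 0.32, against 0.30. CPM of the groups did not overlap for the same 4 of the 9 genes. Over all tested genes 47.8% had groups that did not overlap, 24.8% with LFA1-hi higher and 22.9% with LFA1-hi lower. The changes were modest: none of the 4 reached a 2-fold difference, which 28.8% of called genes did.

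**Figure D1:**
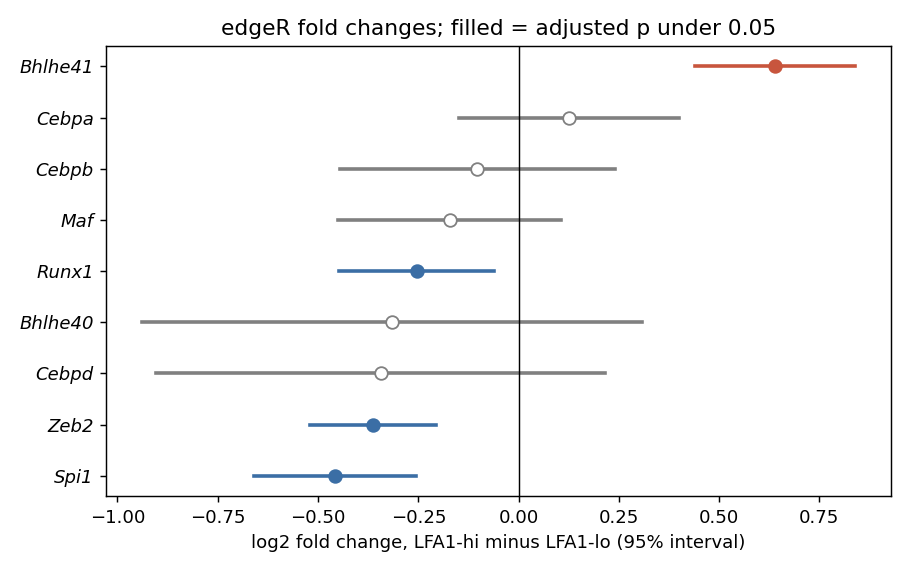
Log2 fold change (LFA1-hi minus LFA1-lo) of the 9 factors from edgeR on the horizontal axis, with 95% intervals as bars (3 libraries a group); filled points passed an adjusted p of 0.05. Spi1, Zeb2 and Runx1 lie left of 0, Bhlhe41 lies right of it at 0.64, and the intervals of the other 5 genes cross 0.

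The levels of different genes are compared in TPM (transcripts per 1000000, which accounts for transcript length). In LFA1-lo macrophages Spi1 stood first at 412 ± 39.9 TPM (mean ± SD, n = 3 here and below), followed by Maf at 192 ± 39.0 and Zeb2 at 154 ± 8.18 TPM. Cebpb (99.8 ± 19.1 TPM) and Cebpa (93.9 ± 17.9 TPM) formed the next level, then Runx1 (50.5 ± 3.66 TPM) and Bhlhe40 (35.7 ± 12.7 TPM). Bhlhe41 (17.4 ± 0.934 TPM) and Cebpd (15.4 ± 5.04 TPM) were lowest. The ranges of the 3 libraries overlapped between the neighbours Maf and Zeb2, Cebpb and Cebpa, Runx1 and Bhlhe40, and Bhlhe41 and Cebpd. Within each single LFA1-lo library, however, Maf stood above Zeb2 and Runx1 above Bhlhe40. The order of Cebpb and Cebpa, and that of Bhlhe41 and Cebpd, changed between libraries and was not resolved. In LFA1-hi macrophages the order was Spi1 (296 ± 3.84 TPM), Maf (167 ± 8.16), Zeb2 (118 ± 2.74), Cebpa (101 ± 6.06), Cebpb (91.5 ± 9.92), Runx1 (40.4 ± 2.02), Bhlhe40 (28.4 ± 4.35), Bhlhe41 (26.7 ± 1.58) and Cebpd (11.9 ± 2.65 TPM). Only Cebpa with Cebpb and Bhlhe40 with Bhlhe41 overlapped as neighbours there. By mean TPM over the 6 libraries the factors ran from the 41.8th percentile of tested genes (Cebpd) to the 96.6th (Spi1).

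**Figure D2:**
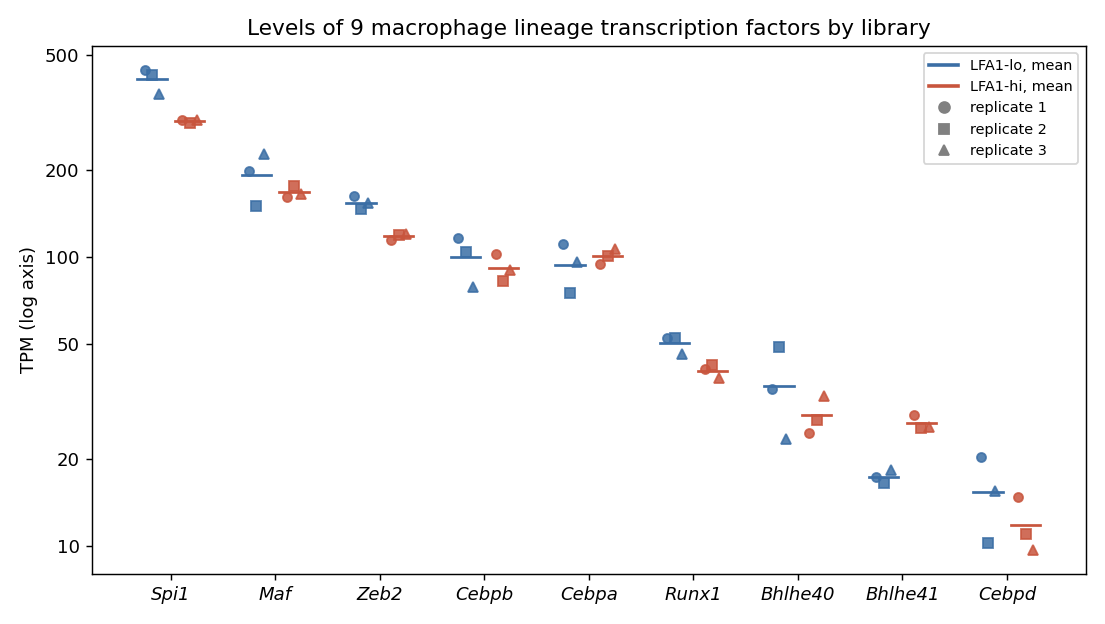
TPM on a log axis for each of the 9 factors, ordered by their mean in LFA1-lo; symbols are single libraries and lines are group means of 3 libraries. The groups separate for Spi1, Zeb2, Runx1 and Bhlhe41 and overlap for the other 5 genes.

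Spi1 (GRCm38 chromosome 2, 91082374 to 91115759) encodes PU.1, whose dose steers progenitors toward macrophages. In the LFA1-lo libraries, replicates 1 to 3, its CPM was 270, 271 and 225, and in the LFA1-hi libraries it was 191, 178 and 189. All LFA1-hi libraries lay below all LFA1-lo libraries, with LFA1-lo replicate 3 nearest to them. The log2 fold change was −0.46 (SE 0.09, edgeR adjusted p = 0.00447), or 1.37-fold lower. This call held in all 17 alternative fits (adjusted p 8.98e-05 to 0.0348).

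Runx1 (chromosome 16, 92601466 to 92826074) encodes the Runt-domain factor that binds DNA with its partner Cbfb. Its CPM was 183, 189 and 160 in the LFA1-lo and 154, 151 and 142 in the LFA1-hi replicates 1 to 3. The groups did not overlap, but LFA1-lo replicate 3 lay close to LFA1-hi replicate 1. The fall (log2 fold change −0.25, SE 0.09, edgeR adjusted p = 0.0486) was at the edge of the threshold. It was lost without LFA1-lo replicate 1 (−0.23, adjusted p = 0.138) and without LFA1-hi replicate 1 (−0.28, 0.107), 2 (−0.26, 0.135) or 3 (−0.22, 0.185), and the adjusted p had a range of 0.0146 to 0.185 over the alternatives.

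The transcripts assigned to Runx1 were longer on average in each LFA1-hi library than in any LFA1-lo library. RSEM reports for each gene a mean transcript length weighted by the abundance of its transcripts, so for a fixed annotation it moves only with transcript use. For Runx1 this length was 6600.93, 6534.48 and 6516.61 bases in the LFA1-lo and 6781.77, 6748.98 and 6701.12 bases in the LFA1-hi replicates 1 to 3. The groups did not overlap, and the means differed by 193 bases (6551 ± 44.4 and 6744 ± 40.6, exact two-sided permutation p = 0.1, the smallest that 3 against 3 allows, adjusted p = 0.3 over 9 such tests). The difference was 174 to 218 bases when any library was left out. Among 3124 tested genes whose mean length varied by over 1 base, 12% had groups that did not overlap. The files list 4 Runx1 transcripts by RefSeq identifier, and each has a match in GENCODE. Both transcripts from the distal start match a GENCODE transcript of 5861 bases, while that from the proximal start matches 4738 bases and the last, starting further inside the gene, 1985 bases. The mean lengths exceed all of these, so the transcript models differ between the annotations and the transcript that gained cannot be named. Mean lengths of Zeb2 (9156 ± 19.0 and 9147 ± 33.9 bases, exact permutation p = 0.7) and Bhlhe41 (6007 ± 11.6 and 6003 ± 3.14 bases, exact permutation p = 0.6) overlapped between the groups.

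Within the Runx family the share of Runx1 was lower in each LFA1-hi library. Runx1 made up 89.3%, 89.4% and 88.0% of the summed TPM of Runx1, Runx2 and Runx3 in the LFA1-lo replicates and 83.2%, 83.2% and 84.0% in the LFA1-hi replicates. These did not overlap (88.9% ± 0.764 and 83.5% ± 0.467, exact two-sided permutation p = 0.1, adjusted p = 0.3). Because TPM accounts for transcript length, the longer mean length of Runx1 enters this share, and share and length are not independent results. The log2 ratio of group means of Runx1 was −0.32 in TPM and −0.25 in CPM. Runx3, a relative known from lymphocytes and some phagocytes, rose from 3.38 ± 0.693 to 9.63 ± 1.16 CPM, a log2 fold change of 1.51 (SE 0.23, edgeR adjusted p = 0.00117). Cbfb, the non-DNA-binding partner that stabilises all Runx proteins, rose from 127 ± 6.88 to 166 ± 6.38 CPM, a log2 fold change of 0.39 (SE 0.08, adjusted p = 0.00522). Runx2, best known from bone, fell by 0.41 on the log2 scale (edgeR adjusted p = 0.0482), a call lost in 11 of 17 alternatives (adjusted p 0.0209 to 0.145), among them those that dropped LFA1-lo replicate 1 or 3 or an LFA1-hi library.

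Among the C/EBP factors, basic leucine zipper proteins that pair with one another, none of the 3 passed the test. Cebpa (chromosome 7, 35119293 to 35121928), which commits progenitors to the myeloid path, had 146, 103 and 128 CPM in the LFA1-lo and 131, 134 and 147 CPM in the LFA1-hi replicates 1 to 3. LFA1-lo replicate 2 was the lowest library and the groups overlapped. Its log2 fold change was 0.13 (SE 0.12, edgeR adjusted p = 0.465), with a 95% interval of 0.903-fold to 1.32-fold. Cebpb (chromosome 2, 167688915 to 167690432), which serves in stress-driven myelopoiesis and in macrophage activation, had 82.3, 77.6 and 56.4 CPM in the LFA1-lo and 76.0, 58.6 and 66.7 CPM in the LFA1-hi replicates. Its groups overlapped throughout (log2 fold change −0.10, adjusted p = 0.642, interval 0.735-fold to 1.18-fold). Cebpd (chromosome 16, 15887286 to 15889545), which amplifies inflammatory responses, had 22.6, 12 and 17.4 CPM in the LFA1-lo and 17.3, 12.3 and 11.4 CPM in the LFA1-hi replicates. Here LFA1-lo replicate 2 was as low as the LFA1-hi libraries, and the interval was wide (log2 fold change −0.34, edgeR adjusted p = 0.325, interval 0.535-fold to 1.16-fold). Without LFA1-lo replicate 2 Cebpd passed (−0.55, adjusted p = 0.0306, in a range of 0.0306 to 0.797 over alternatives). Cebpd overlaps the gene Spidr, which rose by 0.48 on the log2 scale (edgeR adjusted p = 0.00735), and its expected counts were not whole, so reads of the shared stretch may be assigned to either.

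The summed TPM of Cebpa, Cebpb and Cebpd was 209 ± 32.9 in LFA1-lo and 204 ± 8.59 in LFA1-hi macrophages. Cebpa contributed 44.9% ± 5.49 and 49.4% ± 4.12 of it (exact two-sided permutation p = 0.3) and Cebpb 47.8% ± 6.88 and 44.8% ± 3.13 (exact permutation p = 0.7). Cebpd contributed 7.26% ± 1.59 and 5.80% ± 1.15 (exact permutation p = 0.3). All 3 shares overlapped between the groups. Of 4 tested relatives and regulators of this family 1 rose (16.1% of all tested genes) and none fell (15.6%). It was Cebpe, the C/EBP factor of late granulocyte development, which had 10 counts over the LFA1-lo and 96 over the LFA1-hi libraries (0.202 ± 0.0294 and 1.89 ± 0.416 CPM, log2 fold change 3.17, SE 0.52, edgeR adjusted p = 0.00174). It rose while the summed neutrophil markers were lower, and which cells its few counts came from was not tested. Without LFA1-lo replicate 2 the list had 2 that rose.

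Maf (chromosome 8, 115703253 to 115706894) did not pass the test. Its CPM was 370, 293 and 428 in the LFA1-lo and 315, 331 and 322 in the LFA1-hi replicates 1 to 3. The LFA1-lo libraries lay on both sides of the LFA1-hi libraries, with replicate 2 the lowest of all 6. The coefficient of variation was 18.6% for the LFA1-lo group and 2.41% for the LFA1-hi group. The log2 fold change was −0.17 (SE 0.12, edgeR adjusted p = 0.324, interval 0.732-fold to 1.08-fold), and without LFA1-lo replicate 2 the gene passed at −0.31 (adjusted p = 0.00252), while the alternatives as a whole ran up to 0.828.

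Of 10 tested genes linked to Maf factors in macrophages 1 rose and 2 fell (median log2 fold change −0.25). Among all tested genes 16.1% rose and 15.6% fell. Folr2, a folate receptor of resident-type macrophages, rose from 182 ± 51.2 to 314 ± 16.2 CPM, a log2 fold change of 0.79 (SE 0.18, edgeR adjusted p = 0.0133). Its adjusted p ran from 4.54e-05 to 0.0502 over the alternatives, the highest with LFA1-lo replicate 1 left out, where no gene of the list rose. C1qb and C1qc, chains of the first complement component, fell by 0.65 and 0.44 on the log2 scale (edgeR adjusted p = 0.000451 and 0.0089). C1qc was lost without LFA1-hi replicate 2 or 3, where 1 gene of the list fell, and without LFA1-lo replicate 2 the number that fell was 6.

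Zeb2 (chromosome 2, 44983512 to 45117442), a repressor with zinc fingers and a homeodomain, fell with little scatter. Its CPM was 792, 742 and 757 in the LFA1-lo and 585, 583 and 613 in the LFA1-hi replicates 1 to 3. The groups stood clearly apart. The log2 fold change was −0.36 (SE 0.07, edgeR adjusted p = 0.00425), or 1.29-fold lower, and it passed in all 17 alternatives (adjusted p 1.17e-05 to 0.0349). The overlapping long noncoding gene Zeb2os had 17.8, 17.0 and 20.4 CPM in the LFA1-lo and 23.2, 19.7 and 21.8 CPM in the LFA1-hi replicates (0.23, edgeR adjusted p = 0.215). The use of read strand is not given in the sources used here, so reads of the shared stretch cannot be told apart. Of 5 tested Zeb relatives, corepressors and linked factors 1 rose (16.1% of all tested genes) and none fell (15.6%). The gene that rose was Ctbp1, a corepressor that binds Zeb proteins (131 ± 5.29 to 153 ± 6.72 CPM, log2 fold change 0.23, edgeR adjusted p = 0.0487). That call was lost in 9 of 17 alternatives (adjusted p 0.0196 to 0.164), among them those that dropped LFA1-lo replicate 1 or an LFA1-hi library, and 2 genes rose without LFA1-lo replicate 2. Zeb1, the close relative, was low in both groups (3.17 ± 0.521 and 3.68 ± 0.147 CPM, edgeR adjusted p = 0.563).

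Of the 2 Bhlhe repressors, Bhlhe41 rose and Bhlhe40 did not pass the test, and the difference between them was tested only through the shares given here. Bhlhe41 (chromosome 6, 145858243 to 145865420), also called Dec2, had 54.6, 54.6 and 58.4 CPM in the LFA1-lo and 94.4, 81.1 and 85.5 CPM in the LFA1-hi replicates 1 to 3. Every LFA1-hi library lay well above every LFA1-lo library. The log2 fold change was 0.64 (SE 0.09, edgeR adjusted p = 0.000789), or 1.56-fold higher, and the call held in all 17 alternatives (adjusted p 5.2e-08 to 0.00675). Bhlhe40 (chromosome 6, 108660629 to 108666925), also called Dec1, had 55.0, 80.7 and 37.3 CPM in the LFA1-lo and 40.9, 43.2 and 54.8 CPM in the LFA1-hi replicates. LFA1-lo replicates 2 and 3 were the highest and the lowest of all 6 libraries. The log2 fold change of −0.32 (SE 0.27, edgeR adjusted p = 0.41, interval 0.522-fold to 1.24-fold) became 0.01 without LFA1-lo replicate 2. Bhlhe41 made up 33.2%, 25.3% and 44.0% of the summed TPM of both genes in the LFA1-lo and 53.6%, 48.5% and 43.9% in the LFA1-hi replicates. The shares overlapped narrowly, between LFA1-lo replicate 3 and LFA1-hi replicate 3 (34.1% ± 9.38 and 48.6% ± 4.88, exact two-sided permutation p = 0.2, adjusted p = 0.45). Of the related hairy-type factors only Hes6 was tested, and it did not pass (log2 fold change 0.03, edgeR adjusted p = 0.935).

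**Figure D3:**
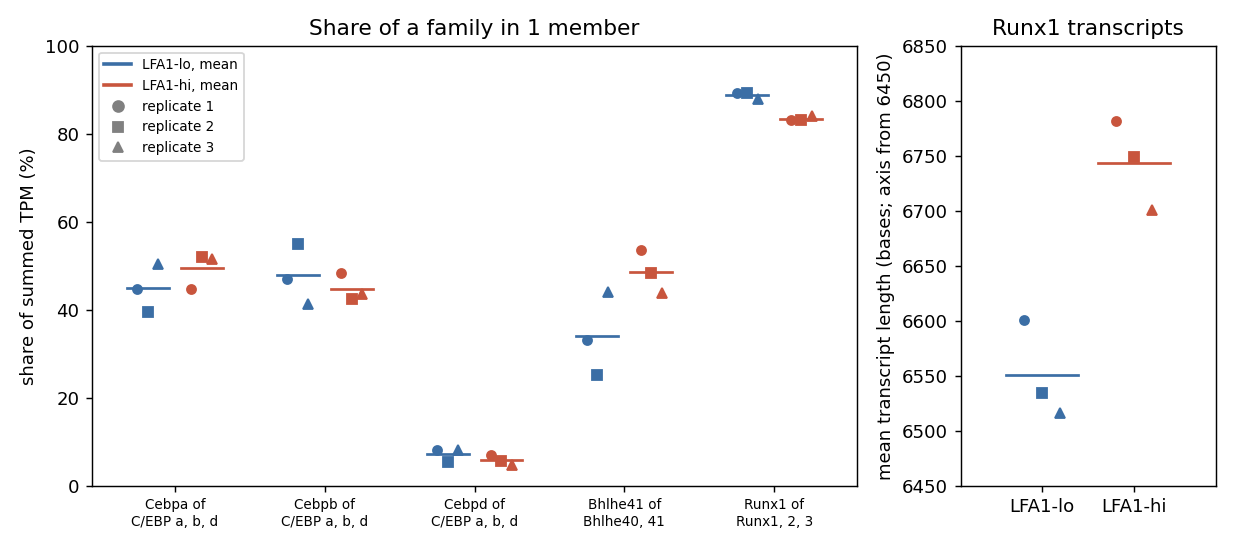
Left, percent of a family's summed TPM held by the named member, by library (symbols) with group means of 3 libraries (lines); right, mean transcript length of Runx1 in bases on an axis that does not start at 0. The groups do not overlap for the share and the length of Runx1, where LFA1-hi libraries are 193 bases longer on average. Share and length are not independent, because TPM accounts for transcript length.

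The scatter of the factors lay mainly in the LFA1-lo group, where 8 of 9 had the larger coefficient of variation, with Bhlhe41 as the exception. The same share over all tested genes was not computed, so this is not shown to be particular to the factors. On component 2 the LFA1-lo libraries also lay further apart (−17.08 to 16.07) than the LFA1-hi libraries (−5.1 to 3.31). In LFA1-lo libraries the coefficient ran from 3.34% for Zeb2 to 37.8% for Bhlhe40, and in LFA1-hi libraries from 2.41% for Maf to 23.5% for Cebpd. LFA1-lo replicate 2 was the lowest of its group for 4 genes (Cebpa, Cebpd, Maf and Zeb2) and the highest for 3 (Spi1, Runx1 and Bhlhe40). Leaving it out raised the number that fell from 3 to 5, as Maf and Cebpd were added, and raised the calls over all tested genes from 3705 to 5032. Leaving out LFA1-lo replicate 1 lowered these numbers to 2, as Runx1 was lost, and to 2737.

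**Figure D4:**
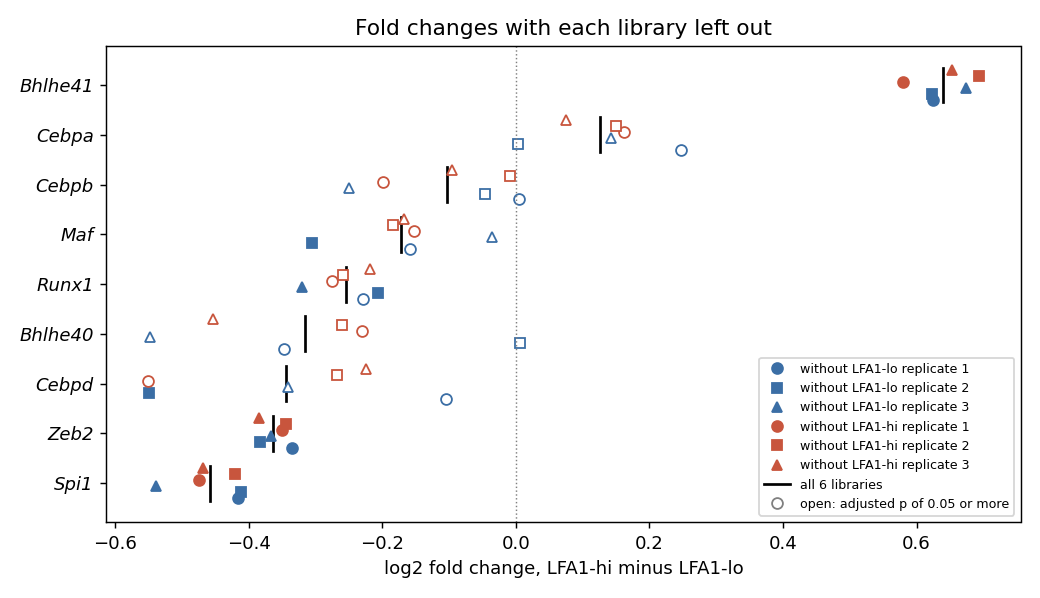
Log2 fold change (LFA1-hi minus LFA1-lo) of each factor when the library named in the legend was left out, with filled symbols where edgeR's adjusted p was under 0.05 and black lines for the fit of all 6 libraries. Spi1, Zeb2 and Bhlhe41 stay filled in all 6 fits, while Bhlhe40 moves from −0.32 to 0.01 without LFA1-lo replicate 2.

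PU.1 acts with partner factors, and of 8 tested relatives and partners 3 fell and 1 rose (median log2 fold change −0.19). Among all tested genes 15.6% fell and 16.1% rose. Spic, the PU.1 relative of macrophages that recycle heme iron, fell from 3.01 ± 0.0777 to 0.614 ± 0.242 CPM, a log2 fold change of −2.29 (SE 0.41, edgeR adjusted p = 0.00283). Irf4, which binds composite sites with PU.1, fell from 10.6 ± 1.02 to 3.08 ± 0.537 CPM, a log2 fold change of −1.78 (SE 0.21, adjusted p = 0.000342). Both passed in all 16 alternatives that tested them. Irf8, the other interferon regulatory partner, fell by 0.26 on the log2 scale (edgeR adjusted p = 0.0446), a call lost in 8 of 17 alternatives (adjusted p 0.00922 to 0.193), among them those that dropped LFA1-lo replicate 1 or an LFA1-hi library. Ets1, an ETS factor typical of lymphocytes, rose from 15.2 ± 0.678 to 21.1 ± 2.21 CPM, a log2 fold change of 0.47 (SE 0.13, edgeR adjusted p = 0.0217). It was lost in 5 of 17 alternatives (adjusted p 0.0113 to 0.0924), among them those that dropped LFA1-lo replicate 1 or LFA1-hi replicate 1 or 2, where none rose. Without LFA1-lo replicate 2 the number that fell was 5.

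Of 13 tested myeloid genes known as targets of PU.1, C/EBP or Runx1, 6 fell and 1 rose (median log2 fold change −0.29). Msr1, a scavenger receptor, rose by 1.31 (SE 0.07, edgeR adjusted p = 9.81e-06). Csf3r, the receptor for granulocyte colony-stimulating factor, fell from 54.5 ± 4.94 to 22.5 ± 3.04 CPM, a log2 fold change of −1.28 (SE 0.13, adjusted p = 0.000131). Csf1r, the M-CSF receptor and a textbook PU.1 target, fell by 1.02 on the log2 scale (adjusted p = 0.000155), to 1374 ± 84.7 CPM. The 6 include Lyz2, and the number that fell was 3 without LFA1-hi replicate 2 or 3. The 9 lists around the factors were chosen with earlier results of these data known. Together they held 62 tested genes, of which 11 rose and 17 fell, with a median of −0.16. Over all tested genes 16.1% rose and 15.6% fell.

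**Figure D5:**
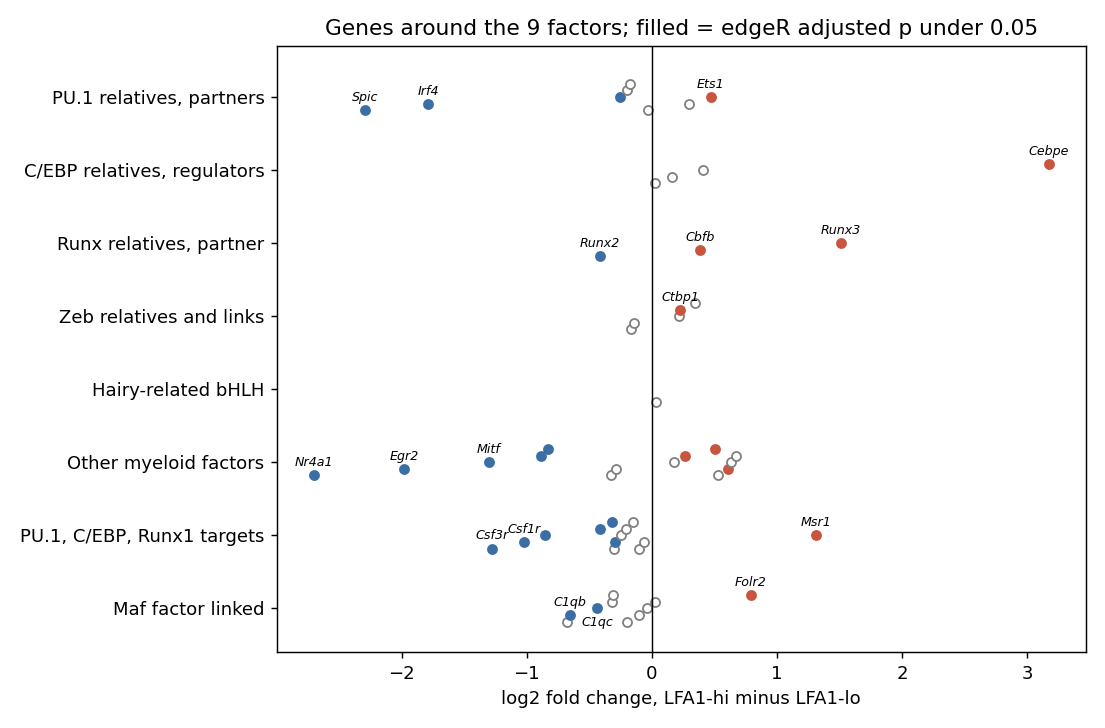
Log2 fold change (LFA1-hi minus LFA1-lo) of the tested genes of 8 lists around the factors, 1 point a gene; filled points passed edgeR's adjusted p of 0.05, and up to 3 of those with the largest changes are named per list. Most changes lie between −1 and 1, with Cebpe at 3.17 and Nr4a1 at −2.70 as the extremes.

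Genes whose level followed Spi1 and Bhlhe41 most closely were taken by Pearson correlation of log2 CPM over the 6 libraries, among 8325 tested genes with a mean of at least 10 CPM. For Bhlhe41 they were Rad18, a ubiquitin ligase of damage bypass at replication forks (r = 0.997), Suv39h1, a histone methyltransferase of heterochromatin (r = 0.996), and Gtf2ird1 (r = 0.994). Rad18 went from 11.7 ± 1.08 to 25.8 ± 2.61 CPM. For Spi1 they were Trem2, a lipid-sensing receptor of macrophages (r = 0.998), Olfm1 (r = 0.998) and Dtx4 (r = 0.998). Trem2 went from 609 ± 46.7 to 456 ± 12.6 CPM. With a difference between the groups in common, 998 genes reached r = 0.9 with Bhlhe41 and 768 with Spi1, so such values are a description of 6 libraries and not evidence of a link.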

How the data were processed

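RNA sequencing with enzymatic rRNA depletion on an Illumina NextSeq2000 gave 6 libraries, per the labels' protocols. Bcl2fastq, Trim Galore, RSEM and the build GRCm38 are listed in the submitters' processing notes. Aligner, versions, annotation release and strand setting: not given in the sources used here. Per the file headers, the deposited values are RSEM expected counts, not normalized, and TPM, scaled by the authors for transcript length and library total. The deposited length column is in bases. Gene coordinates, counted from 1, and promoter sequences are from RefSeq GRCm38.p6, and transcript matches from GENCODE M21.

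Expected counts were rounded, filtered with filterByExpr (11692 of 24411 genes kept) and scaled by TMM (factors 0.956 to 1.034). LFA1-hi minus LFA1-lo was fitted over all genes with the robust quasi-likelihood test of edgeR 4.0.16 (R 4.3.3), without a block, after a test on simulated data. Shares and lengths were compared by exact permutation in SciPy 1.17.1 (9 tests). Alternatives were RLE, upper quartile and library-total scaling, no filter, at least 10 CPM in 3 libraries, unrounded counts, DESeq2 1.42.0, limma 3.58.1 (voom, or log2 of TPM + 0.1 or TPM + 1), a block and leaving out each library. For the lists, shares and lengths they were added after seeing the data.

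The members and lists were chosen with earlier results of these data known. Named are the 9 members, the called genes with the 3 largest changes of each list, and the 3 genes most like the member that rose most and the one that fell most. Irf8, Lyz2, Zeb1, Hes6, Pparg, Mef2c, Mef2a, Klf2, Myc, the markers at 0 and the genes that overlap members are outside this rule and were chosen after their values were seen. Values of a few genes, with the family list and the share that rest on them, are not reported here.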

Additional observations from a re-analysis of the deposited data

How the results depend on the processing

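Spi1, Zeb2 and Bhlhe41 kept direction and call in all 17 alternatives. All genes called numbered 3705, from 2288 (without LFA1-hi replicate 2) to 5032 (without LFA1-lo replicate 2), with 2342 and 2427 when LFA1-hi replicates 1 and 3 were left out. Factors called lower numbered 3, and 2 to 5 when a library was left out. Runx1 lost its call with upper quartile scaling (−0.24, edgeR adjusted p = 0.0596), library totals (−0.19, 0.106), no filter (−0.25, 0.0604), the replicate block (−0.25, 0.0650) and in 4 of the fits without a library (all 6 such fits −0.32 to −0.21). The cause was not tested.

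Cebpb turned to 0.00487 without LFA1-lo replicate 1 (range without a library −0.25 to 0.00487) and Bhlhe40 to 0.00582 without LFA1-lo replicate 2 (range −0.55 to 0.00582). Without LFA1-lo replicate 2 Cebpd (−0.55, range −0.55 to −0.10) and Maf (−0.31, range −0.31 to −0.036) gained a call. Genes of the lists that rose numbered 11, 6 to 15 without a library and 7 with limma on log2(TPM + 0.1) or log2(TPM + 1), and those that fell numbered 17, 11 to 25 without a library.

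No pairing by replicate number was seen: deviations of the same-numbered libraries correlated at 0.037, 0.018 and −0.072. Not every library correlated best with its own number. With so few libraries a group, these correlations cannot decide whether same-numbered libraries share an origin, which the labels do not give. With the replicate block 3253 genes were called. Among the factors and the named genes called in the lists around them, Runx1, Irf8, Runx2, Ctbp1 and Mef2a lost their call. Scaling by library totals moved the median of all tested genes from 0.00 to 0.06. Low counts limit the precision for Cebpe, with 10 over the LFA1-lo libraries.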

Other observations

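Other transcription factors of macrophages and myeloid cells, 14 of them tested, rose in 3 and fell in 5 cases (median log2 fold change −0.05). Among all tested genes 16.1% rose and 15.6% fell. Nr4a1, an orphan nuclear receptor that patrolling monocytes need, fell from 26.1 ± 1.23 to 4.01 ± 0.458 CPM (−2.70, edgeR adjusted p = 9.81e-06). Egr2, a zinc finger factor induced by M-CSF, had 133, 225 and 83.6 CPM in the LFA1-lo and 29.6, 34.6 and 47.8 CPM in the LFA1-hi replicates (−1.98, adjusted p = 0.0102). Mitf, a driver of lysosomal and osteoclast genes, fell from 226 ± 48.5 to 91.7 ± 2.01 CPM (−1.30, adjusted p = 0.000299). Pparg, the lipid-sensing factor of alveolar macrophages, fell by 0.89 and Mef2c by 0.83 on the log2 scale (edgeR adjusted p = 0.00148 and 0.000791). These 5 genes passed in each of the 17 alternatives.

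The 3 that rose were Klf2, Myc and Mef2a. Myc is known from cell growth. Klf2 rose from 28.1 ± 4.97 to 42.7 ± 2.86 CPM (0.61, edgeR adjusted p = 0.00841). Myc rose from 59.4 ± 14.4 to 84.3 ± 0.319 CPM (0.51, adjusted p = 0.0399), a call lost when LFA1-lo replicate 1 or an LFA1-hi library was dropped (adjusted p over alternatives 0.00154 to 0.106). Mef2a rose by 0.26 (edgeR adjusted p = 0.0183), a call lost in 5 of 17 alternatives (adjusted p 0.00445 to 0.0824). With LFA1-hi replicate 1 or 2 left out, 1 gene of the list rose.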
